A study of Mus musculus with 2 samples.

Results

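The nuclear genes of the respiratory chain and the ATP synthase were followed in a mouse line of acute myeloid leukemia named 63.3, grown with beta-estradiol and stem cell factor. Genes were chosen by symbol, from the families that name subunits of complexes I, III and IV and of the ATP synthase, with the genes of complex II and cytochrome c added, and assembly factors and genes named as pseudogenes left out. The choice gave 91 genes of 54736 in the count matrix. They were 39 genes of complex I, 4 of complex II, 9 of complex III, 1 for cytochrome c, 21 of complex IV and 17 of the ATP synthase. The cultures formed 2 series. Brequinar, an inhibitor of dihydroorotate dehydrogenase, was added at 2 µM for 6, 12, 24 or 48 h with estradiol present, and a brequinar 0 h culture went with them. In the other series estradiol, 0.5 µM in the growth medium, was washed away for 6, 12, 24 or 48 h, with its own 0 h culture. All cultures had stem cell factor from conditioned medium of a hamster cell line and dialyzed serum. The labels do not say which construct estradiol acts on in this line, whether the line is 1 clone, or whether the brequinar 0 h culture received solvent. There is no untreated culture at 6 to 48 h, so treatment cannot be told apart from time in culture.

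The respiratory chain is a series of protein complexes in the inner mitochondrial membrane. Complex I and complex II pass electrons from NADH and succinate to ubiquinone, complex III passes them to cytochrome c, and complex IV to oxygen. The protons pumped on the way drive the ATP synthase. Dihydroorotate dehydrogenase, the enzyme that brequinar blocks, sits in the same membrane and also gives its electrons to ubiquinone. Most subunits are encoded in the nucleus, and a few core subunits are encoded in the mitochondrial DNA. Tissue isoforms replace some complex IV subunits in muscle, lung or testis.

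Each condition was 1 culture, marked with its own lipid-anchored barcode before pooling, and both sequencing runs hold the same pool without being told apart. No test was therefore possible, and differences have no replicate check. Levels are counts per 1000000 (CPM) of the spliced UMIs summed over a culture. A gene was called higher or lower when its CPM differed at least 1.5-fold and it reached 20 CPM in either culture. The intervals given with ratios are exact 95% bounds and allow for counting error alone. The 10 cultures held 528 to 1536 cells and 5236694 to 19931921 UMIs, so that 3 counts stand at 0.151 to 0.573 CPM. The brequinar 0 h and withdrawal 0 h cultures were alike: the members' ratios between them had an SD of 0.04 on the log2 scale, and 0 of 80 measured members were called (0.0% of all measured genes higher and 0.0546% lower). The progenitor list was measured in full, 10 of 10 genes. At 48 h of brequinar 4 of them were higher and 0 lower, at a summed 11565 CPM against 8495 CPM at 0 h, and at 48 h of withdrawal 4 were higher and 6 lower, at 8639 CPM against 8559 CPM. The erythroid list had no measured gene, with sums up to 3.15 CPM, and the lymphoid list had 1 or 2 measured genes of 6, with a sum of 198 CPM at 24 h of brequinar against 76.6 CPM at 0 h. Of the neutrophil maturation list, the summed level reached 3672 CPM at 48 h of brequinar against 363 CPM at 0 h, and 60776 CPM at 48 h of withdrawal against 431 CPM at 0 h. The share of cells with at least 10% of UMIs from mitochondrial genes was 18.4, 16.2, 18.8, 3.79 and 1.70% at 0, 6, 12, 24 and 48 h of brequinar, and 16.6, 22.2, 22.7, 16.2 and 3.12% in the withdrawal series. The part of these lists and of the mitochondrial share in the results below was not tested.

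Members reaching 20 CPM in any condition numbered 81, and 77 reached it in every condition. Of the other 10, Ndufb4c and Ndufs6b had no counts. GENCODE vM21 annotates these, Cox6c2 and Ndufa11b as processed pseudogenes although the symbols do not say so. The rest are the tissue isoforms Cox4i2, Cox6b2, Cox7a1, Cox7b2, Cox8b and Cox8c, of which Cox7a1, the heart and muscle form, was highest at 16.4 CPM. The partners Cox4i1, Cox6b1, Cox7a2 and Cox8a had 754 to 4529 CPM over the cultures. Ndufa4l2 reached 20 CPM only at 48 h and so passed the filter only where it was high.

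Promoter windows from RefSeq (GRCm38.p6, 250 bases before to 50 after a gene's start) were matched by symbol for 64 of the 81 measured members. They are shown for Cycs, encoding cytochrome c, Atp5g1, a gene of the c ring, and Ndufa5, an accessory complex I subunit, which were called lower at 6 h in both series, and for Cox7a2l, which was called higher at 12 and 48 h of withdrawal. Capitals mark the cAMP response element TGACGTCA and the core GCATGCGC of the NRF1 motif. The core word was shortened after the windows had been seen, so its count in them below is not an independent one. Ndufa5 has 2 windows, neither with these words, and the 1 shown lies inside the gene's span in GENCODE vM21, chr6:24518666-24528013. The Cox7a2l window also lies inside its gene's span there, chr17:83501918-83517330. The windows shown for these 2 genes thus do not reach the annotated 5′ end. Cycs holds both words, the first starting 169 and the second 60 bases before the start, and the other windows shown hold neither. All are on the minus strand and are written 5′ to 3′ along the gene, Cycs at chr6:50566520-50566819, Atp5g1 at chr11:96075582-96075881, Ndufa5 at chr6:24527477-24527776 and Cox7a2l at chr17:83514284-83514583.
Cycs: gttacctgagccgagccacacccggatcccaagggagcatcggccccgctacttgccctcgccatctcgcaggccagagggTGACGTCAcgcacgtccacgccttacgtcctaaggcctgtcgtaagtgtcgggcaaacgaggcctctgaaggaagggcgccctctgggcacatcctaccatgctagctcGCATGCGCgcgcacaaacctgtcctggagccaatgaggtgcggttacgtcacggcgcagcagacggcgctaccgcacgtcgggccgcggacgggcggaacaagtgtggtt
Atp5g1: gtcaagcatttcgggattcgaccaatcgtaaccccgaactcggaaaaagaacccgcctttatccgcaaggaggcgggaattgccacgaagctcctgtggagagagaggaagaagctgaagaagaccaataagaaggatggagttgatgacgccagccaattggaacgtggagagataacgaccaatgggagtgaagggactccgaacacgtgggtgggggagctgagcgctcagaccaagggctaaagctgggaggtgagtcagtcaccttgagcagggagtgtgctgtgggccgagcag
Ndufa5: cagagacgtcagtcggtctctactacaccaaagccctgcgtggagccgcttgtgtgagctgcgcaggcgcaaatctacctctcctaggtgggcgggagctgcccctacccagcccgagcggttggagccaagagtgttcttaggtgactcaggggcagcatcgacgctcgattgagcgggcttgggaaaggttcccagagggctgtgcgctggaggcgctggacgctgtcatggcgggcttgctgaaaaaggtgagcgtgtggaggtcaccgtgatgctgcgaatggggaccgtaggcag
Cox7a2l: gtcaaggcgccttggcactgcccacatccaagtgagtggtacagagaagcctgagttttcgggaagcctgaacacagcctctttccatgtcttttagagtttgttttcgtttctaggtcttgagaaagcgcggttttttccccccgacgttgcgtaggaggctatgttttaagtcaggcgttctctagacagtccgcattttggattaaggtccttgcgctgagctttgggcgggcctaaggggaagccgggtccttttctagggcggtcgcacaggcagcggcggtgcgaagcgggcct
Over both strands, the NRF1 core stood in 11 of 64 member windows (17.2%) and in 3.05% of 27025 genes with a window. The ETS word CCGGAAG stood in 16 (25%) against 9.93%, the cAMP response element in 5 (7.81%) against 2.03%, and the amino acid response word TGATGCAA in 0 against 1.03%. In the Cycs window the 2 marked words do not overlap. The words are letters in a window and not shown sites of binding.

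Summed over members, the nuclear genes took a smaller share of UMIs late in both series. The sum was 52268, 47571, 51839, 46476 and 39912 CPM at 0, 6, 12, 24 and 48 h of brequinar, a ratio of 0.764 (0.76 to 0.767) at 48 h against 0 h. In the withdrawal series it was 52432, 48688, 48408, 46995 and 33683 CPM, a ratio of 0.642 (0.64 to 0.645) at 48 h. In cells thinned to 2500 UMIs, the median share of UMIs in members was 5.24, 4.80, 5.18, 4.60 and 3.88% over the brequinar series and 5.24, 4.92, 4.88, 4.76 and 3.16% over the withdrawal series. The quartiles at 48 h were 3.32 and 4.48% under brequinar and 2.64 and 3.8% after withdrawal, against 4.76 and 5.68% and 4.80 and 5.64% in the 0 h cultures. They describe the cells of 1 culture each and not the spread between cultures. The thinning left out 13 to 249 cells of a culture. In CPM, a smaller share of a gene and more RNA of other genes per cell cannot be told apart.

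**Figure D1:**
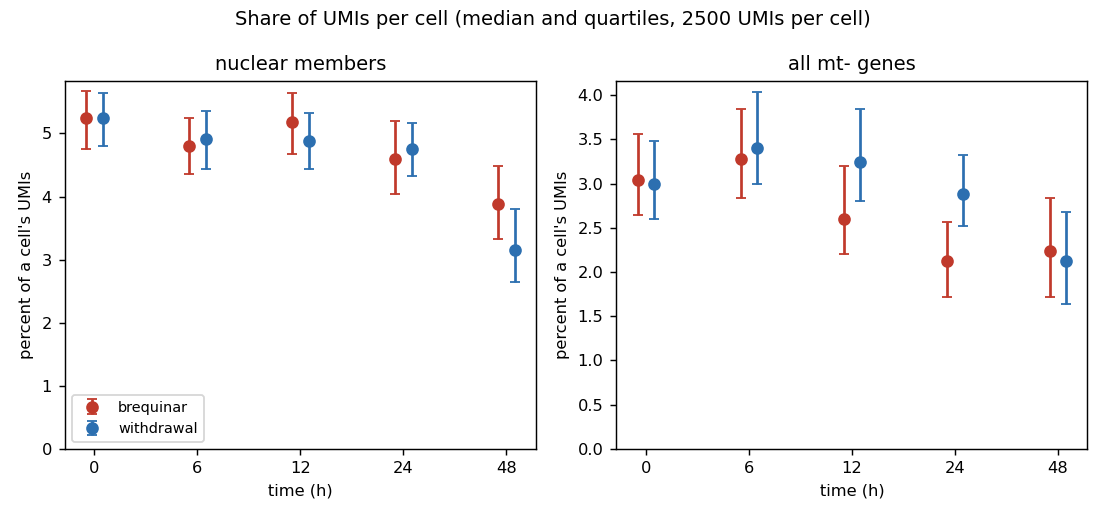
Percent of a cell's UMIs that fall in the nuclear members (left) and in all genes with the mt- prefix (right), over cells thinned to 2500 UMIs. Points are medians and bars are quartiles of the cells of 1 culture. Times are spaced evenly. The nuclear share is lowest at 48 h in both series, with medians of 3.88% under brequinar and 3.16% after withdrawal.

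At 48 h a larger share of members than of all genes was lower in both series. Under brequinar 25 of 81 measured members were at least 1.5-fold lower (17.3% of all measured genes were) and 1 was higher (25.7%). After withdrawal 52 of 81 were lower (40.7%) and 3 were higher (21.5%). The members' median log2 ratio was -0.41 under brequinar (all genes 0.04) and -0.67 after withdrawal (all genes -0.33). Of the 25 lower members under brequinar, 24 were also among the 52 lower after withdrawal, and Uqcrfs1, the Rieske iron-sulfur protein of complex III, was the exception. The same overlap was not counted over all genes, so it is not shown to be a trait of the members. Of 77 members at 20 CPM or more throughout, 58 had their lowest level of the brequinar series at 48 h, and 70 that of the withdrawal series. The time of the lowest level was not counted over all genes, so these counts have no share beside them. Both series were set against their own 0 h culture. TMM scaling, which moves the level of all genes in opposite directions in the 2 series, gave 45 lower members under brequinar and a median of -0.61, and a median of -0.48 after withdrawal. The share of all genes under that scaling is not given here, so the 45 cannot be set against 17.3%. Over the settings run, the members' median minus that of all genes was -0.50 to -0.32 under brequinar and -0.43 to -0.27 after withdrawal.

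**Figure D2:**
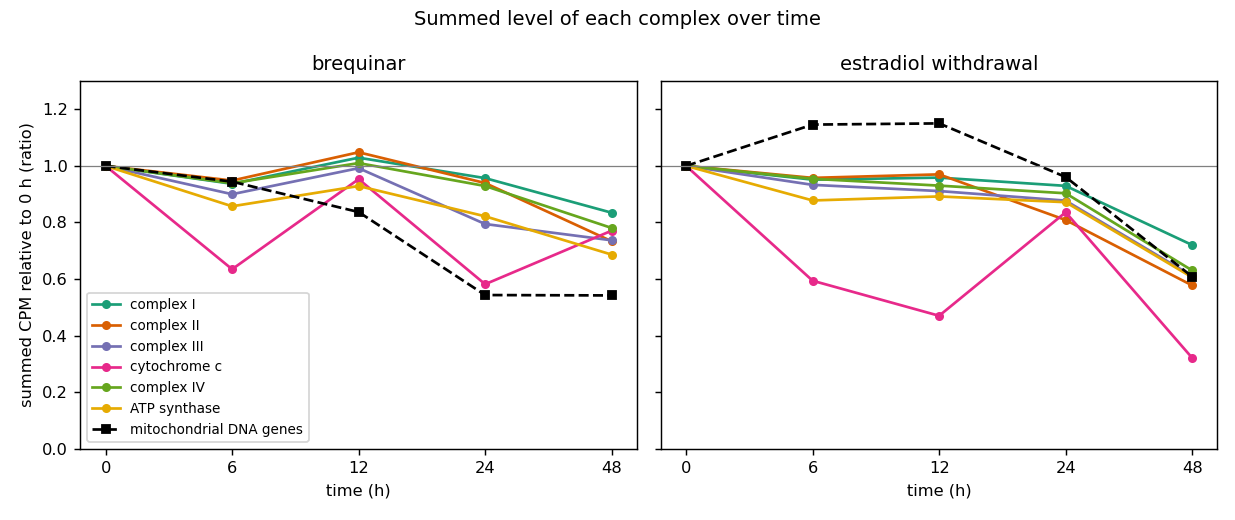
Summed CPM of the members of each complex relative to 0 h of the same series, over time in hours with even spacing. The dashed line is the sum of 13 genes of the mitochondrial DNA. At 48 h every complex lies below 1 in both series, and cytochrome c is lowest after withdrawal with a ratio of 0.321.

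The complexes moved unequally. At 48 h of brequinar the summed ratio to 0 h was 0.834 for complex I, 0.734 for complex II, 0.737 for complex III, 0.771 for cytochrome c, 0.781 for complex IV and 0.686 for the ATP synthase. After withdrawal these were 0.720, 0.578, 0.611, 0.321, 0.631 and 0.606. Complex I was the closest to its 0 h level in both series, with 9 of 36 measured members lower under brequinar and 21 of 36 after withdrawal. The lower members were 1 of 4 and 3 of 4 of complex II, 5 of 9 and 7 of 9 of complex III, 3 of 14 and 8 of 14 of complex IV, and 7 of 17 and 12 of 17 of the ATP synthase, brequinar first in each pair. At 24 h brequinar had 14 of 80 lower members (13.8% of all genes) and 0 higher (29.2%), with a median log2 ratio of -0.18 (all genes 0.16). Withdrawal at 24 h had 0 lower (11.9%) and 0 higher (9.46%), with a median of -0.16 (all genes -0.14).

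**Figure D3:**
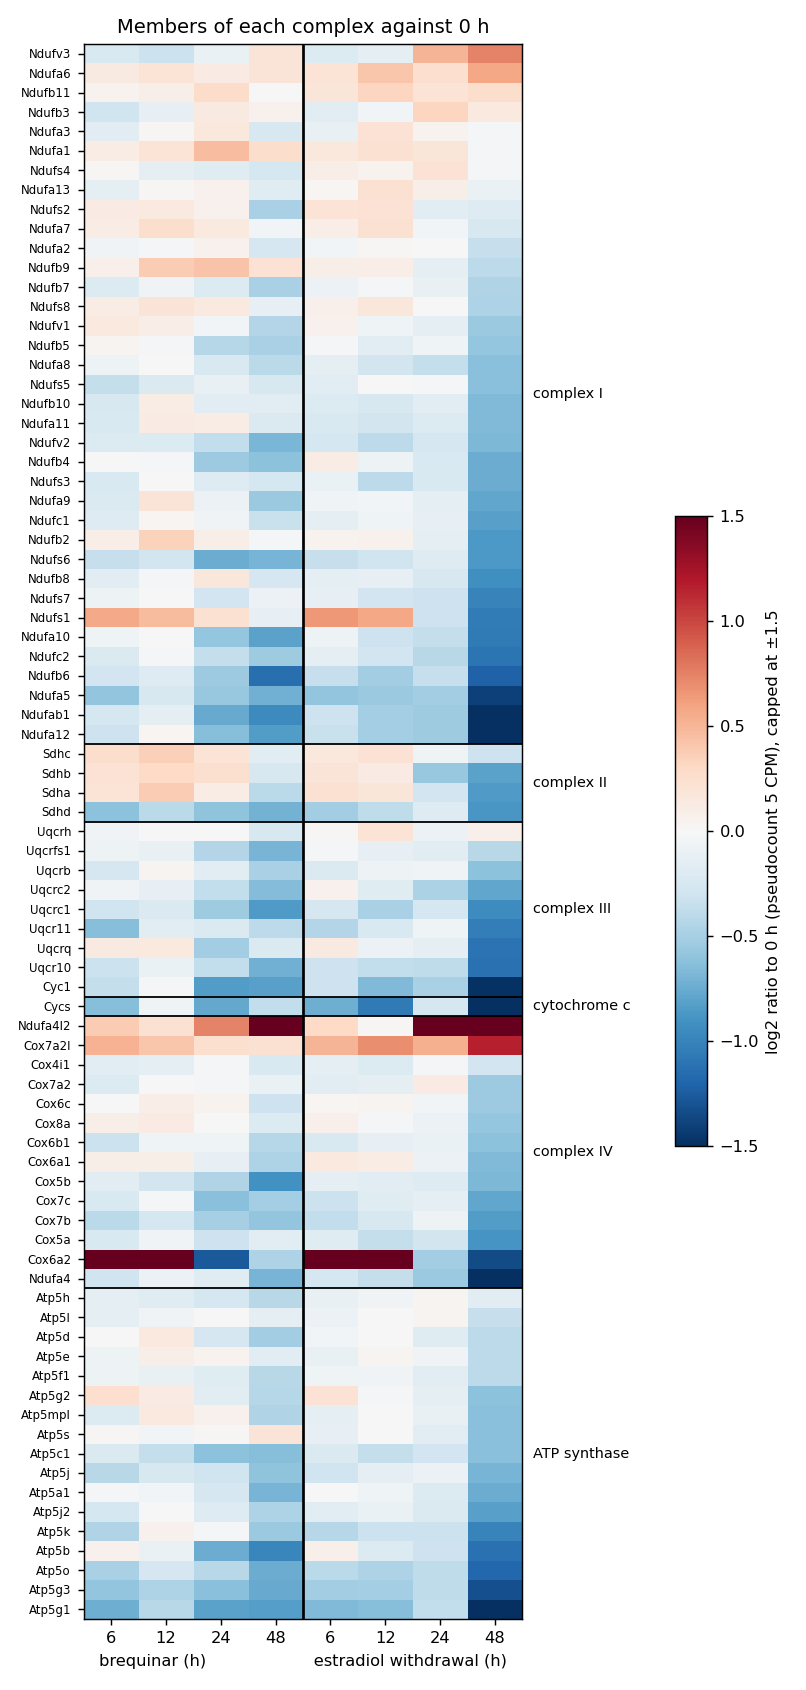
Log2 ratio to 0 h of each of the 81 members that reached 20 CPM in any condition (pseudocount 5 CPM, color capped at ±1.5), rows by complex and columns by time, brequinar left of withdrawal. Red is higher and blue lower than 0 h. Cox6a2 is high at 6 and 12 h in both series, Ndufa4l2 at 48 h and, under 20 CPM, at 24 h of withdrawal, and the columns at 48 h hold the most blue, with 25 lower members under brequinar and 52 after withdrawal.

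Few members were called at 6 h, and only the lower ones under brequinar were a larger share than among all genes. At 6 h of brequinar 2 members were higher (8.82% of all genes) and 6 lower (4.97%), and at 6 h of withdrawal 2 were higher (12.3%) and 3 lower (8.11%). Higher in both were Cox6a2, a complex IV subunit known from heart and skeletal muscle, and Ndufs1, the largest core subunit of complex I. Cox6a2 had 81.2, 249, 261, 30.9 and 57.3 CPM at 0, 6, 12, 24 and 48 h of brequinar. In the withdrawal series it had 72.3, 239, 214, 48.7 and 25.5 CPM. It thus stood 3.07-fold (2.89 to 3.26) above 0 h at 6 h of brequinar and 3.30-fold (3.09 to 3.52) at 6 h of withdrawal, and below 0 h from 24 h on in both. At 24 h of brequinar it was 2.63-fold lower (2.38 to 2.91). Its gene lies within Itgad on the opposite strand in GENCODE vM21, and Itgad stayed at or below 0.627 CPM. Its general partner Cox6a1 had 1242, 1325, 1316, 1143 and 897 CPM under brequinar and 1227, 1362, 1329, 1152 and 770 CPM after withdrawal.

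Ndufs1, which carries iron-sulfur clusters near the NADH site, had 21.8, 34.6, 32.1, 26.4 and 19.7 CPM under brequinar and 23.2, 39.2, 37.3, 17.7 and 8.60 CPM after withdrawal. Its ratio at 6 h was 1.59 (1.39 to 1.82) under brequinar and 1.69 (1.48 to 1.93) after withdrawal. Ndufv1, the core subunit that binds NADH, had 207 and 196 CPM at 6 h of brequinar and withdrawal, and 136 CPM at 48 h of brequinar against 186 CPM at 0 h, and 126 CPM at 48 h of withdrawal against 188 CPM at 0 h. Lower in both at 6 h were Cycs, Atp5g1 and Ndufa5. Atp5g3, Sdhd and Uqcr11, a small complex III subunit, were called lower only in the brequinar culture, but the direct ratio between the 6 h cultures called 0 of 80 members (1.9% of all genes higher and 1.45% lower). The genes of 6 and 12 h were named after their values had been seen.

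Cytochrome c went up and down over time, in a different order in the series. Cycs had 317, 201, 302, 185 and 245 CPM at 0, 6, 12, 24 and 48 h of brequinar, and 315, 187, 148, 263 and 101 CPM in the withdrawal series. Brequinar was thus back near the 0 h level at 12 h, where withdrawal was lowest before 48 h, and at 24 h the order was turned round. At 12 h Cycs was 2.04-fold higher under brequinar than after withdrawal (1.93 to 2.16), at 24 h 1.43-fold lower, and at 48 h 2.42-fold higher (2.20 to 2.66). Cyc1, the subunit of complex III that hands electrons to cytochrome c, also differed at 12 h, with 493 CPM under brequinar and 313 CPM after withdrawal, 1.57-fold (1.51 to 1.64). These were the 2 members higher under brequinar at 12 h (13.2% of all genes), with 0 lower (7.33%). At 12 h against 0 h, brequinar had 1 higher member (13.5%) and 0 lower (4.67%), and withdrawal 3 higher (13.4%) and 3 lower (11.2%).

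**Figure D4:**
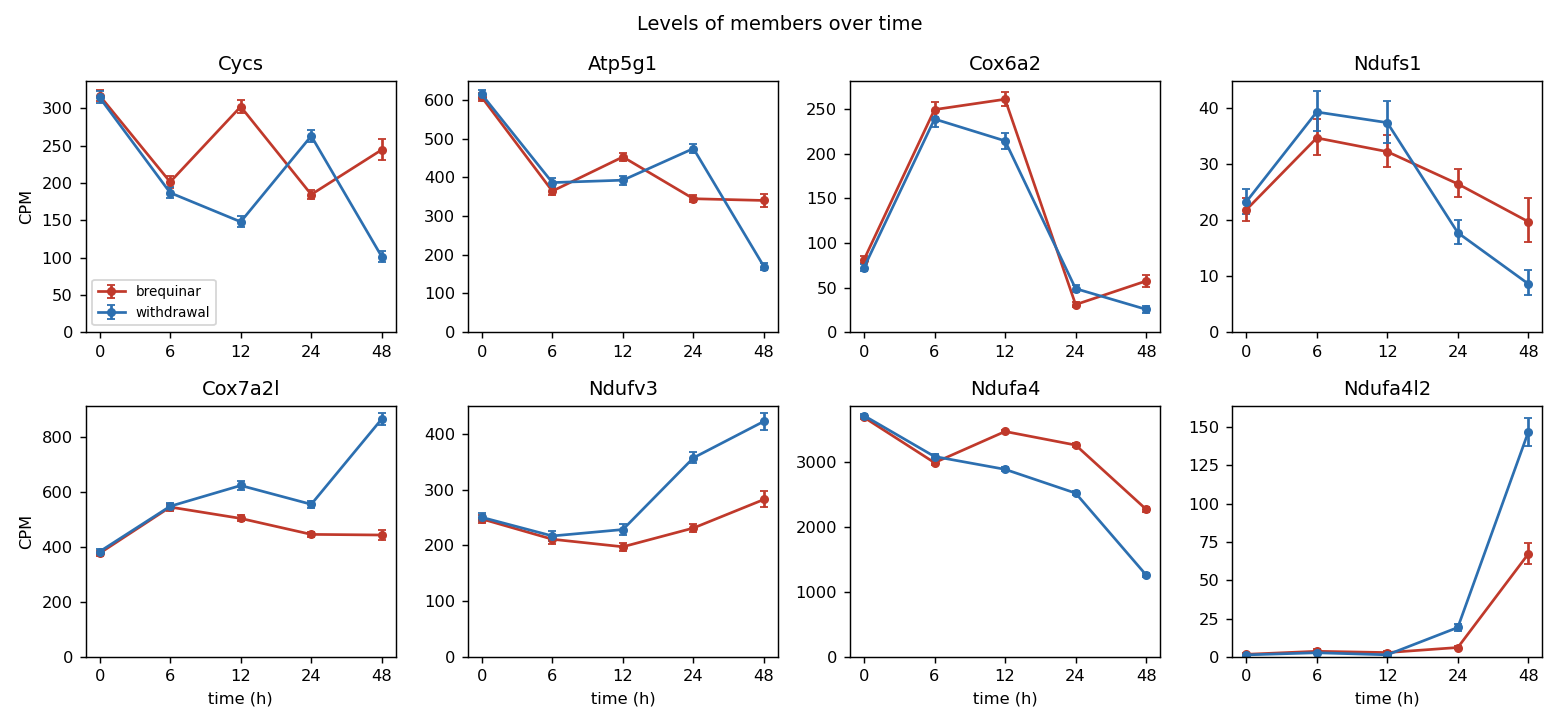
Levels in CPM of 8 members over time (even spacing), brequinar in red and withdrawal in blue. Bars are exact 95% Poisson intervals, which cover counting error only. Cox6a2 and Ndufs1 peak at 6 and 12 h, Cycs crosses between the series, and Ndufa4l2 is highest at 48 h with 67.2 CPM under brequinar and 147 CPM after withdrawal, having had 6.07 and 19.2 CPM at 24 h.

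In complex I, the accessory subunits spread widely. Ndufa12 had 97.4 CPM at 48 h of brequinar against 178 CPM at 0 h, and 45.9 CPM at 48 h of withdrawal against 182 CPM at 0 h, which was 1.83-fold (1.67 to 2.01) and 3.97-fold (3.53 to 4.47) lower. Ndufab1, the mitochondrial acyl carrier protein, had 89.6 against 179 CPM under brequinar and 56.5 against 179 CPM after withdrawal. Ndufb6, with 127 against 284 CPM, was the lowest complex I member at 48 h of brequinar, 2.24-fold lower (2.07 to 2.43), and had 118 against 281 CPM after withdrawal. Ndufa5 had 413, 273, 348, 277 and 249 CPM in the brequinar series and 425, 281, 288, 295 and 158 CPM in the withdrawal series. Some accessory subunits went the other way. Ndufv3, of the NADH-oxidizing module, had 282 CPM at 48 h of brequinar against 247 CPM at 0 h and 423 CPM at 48 h of withdrawal against 250 CPM at 0 h, 1.69-fold higher (1.61 to 1.77) after withdrawal. Ndufa6 had 561 CPM at 48 h of withdrawal against 375 CPM, just short of the fold used. Ndufa1 had the highest ratio to 0 h of the complex I members at 24 and 48 h of brequinar, with 357, 386, 413, 496 and 431 CPM over the series.

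Complex II, the succinate dehydrogenase of the citric acid cycle, split by subunit early. Sdha, the flavoprotein, had 149, 172, 196, 162 and 112 CPM under brequinar and 149, 175, 170, 122 and 80.1 CPM after withdrawal. Sdhb, the iron-sulfur subunit, had 318, 372, 394, 376 and 269 CPM under brequinar and 326, 375, 357, 219 and 184 CPM after withdrawal. Both stood above 0 h at 6 and 12 h and below it at 48 h. Sdhc, a membrane anchor, followed with 108, 131, 139, 125 and 95.7 CPM under brequinar and 116, 129, 135, 111 and 92.5 CPM after withdrawal. Sdhd, the other membrane anchor, was lower than 0 h at every time, with 429, 277, 323, 280 and 260 CPM under brequinar and 434, 302, 332, 378 and 235 CPM after withdrawal. At 24 h Sdhb was 1.72-fold higher under brequinar than after withdrawal (1.65 to 1.79), the one member called higher there (29.6% of all genes).

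In complex III, all 4 core subunit genes were lower at 48 h of brequinar, at a summed ratio of 0.588 (0.569 to 0.607), and 3 of 4 at 48 h of withdrawal, at 0.545 (0.529 to 0.561). Cyc1 had 284 CPM at 48 h of brequinar against 502 CPM at 0 h, and 174 CPM at 48 h of withdrawal against 497 CPM at 0 h. Uqcrc1, a core protein that faces the matrix, had 234, 190, 201, 160 and 128 CPM under brequinar and 234, 195, 166, 193 and 120 CPM after withdrawal. Uqcrfs1 had 308 CPM against 502 CPM under brequinar and 371 CPM against 498 CPM after withdrawal, where its ratio of 0.744 (0.712 to 0.778) did not reach the fold. Of the accessory subunits, Uqcrh, the hinge protein, stayed near 0 h at 48 h of withdrawal, with 1349 CPM against 1279 CPM. Uqcrq had 740 CPM there against 1604 CPM at 0 h, and 1368 CPM at 48 h of brequinar against 1587 CPM at 0 h.

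Of the members higher at 48 h, Ndufa4l2 and Cox7a2l belong to complex IV and Ndufv3 to complex I. Ndufa4l2 was called in both series and the other two after withdrawal. Ndufa4l2, an isoform of Ndufa4 described in hypoxic cells, had 1.61, 3.58, 2.76, 6.07 and 67.2 CPM at 0, 6, 12, 24 and 48 h of brequinar and 1.23, 2.65, 1.29, 19.2 and 147 CPM in the withdrawal series. The ratios at 48 h were 41.9 (29.1 to 62.2) and 119 (78.8 to 189), from 32 and 23 counts in the 0 h cultures. In cells thinned to 2500 UMIs, 48 of 515 cells had a UMI at 48 h of brequinar, 9.32% (6.95 to 12.2%, exact Clopper-Pearson), and 121 of 888 at 48 h of withdrawal, 13.6% (11.4 to 16.1%). The 0 h cultures had 0.306% and 0.426%. Without thinning these shares were 13.1 and 17.2% at 48 h, in cells with median depths of 9782 and 6509 UMIs, against 1.46 and 1.70% at 0 h at 14849 and 15229 UMIs. In GENCODE vM21 the gene overlaps Shmt2 by 32 bases on the opposite strand, and whether counting used strand is not given in the sources used here. Shmt2, which encodes a mitochondrial folate enzyme, had 146 CPM at 48 h of brequinar against 157 CPM at 0 h, and 57.7 CPM at 48 h of withdrawal against 163 CPM at 0 h.

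Ndufa4, the general partner, had 3691, 2992, 3473, 3263 and 2273 CPM under brequinar and 3717, 3087, 2889, 2522 and 1261 CPM after withdrawal. At 48 h it was 1.62-fold lower (1.59 to 1.66) under brequinar and 2.95-fold lower (2.88 to 3.02) after withdrawal. Cox7a2l, which takes part in joining complexes III and IV into supercomplexes, had 377, 545, 504, 446 and 443 CPM under brequinar and 383, 548, 624, 555 and 866 CPM after withdrawal. It was 2.26-fold above 0 h at 48 h of withdrawal (2.18 to 2.34), and 1.18-fold (1.12 to 1.23) at 48 h of brequinar. Cox4i1, a regulatory subunit, had 795 CPM at 48 h of brequinar against 930 CPM at 0 h and 754 CPM at 48 h of withdrawal against 920 CPM. Cox5b had 305 CPM against 577 CPM under brequinar, the lowest complex IV ratio there, and 359 CPM against 577 CPM after withdrawal. Cox8a, the ubiquitous isoform, had 3604 CPM at 48 h of brequinar against 4143 CPM at 0 h, and 2780 CPM at 48 h of withdrawal against 4142 CPM.

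In the ATP synthase the c-ring genes were the lowest group. The c ring is the rotor turned by protons. Atp5g1 had 607, 365, 453, 345 and 340 CPM under brequinar and 615, 387, 393, 475 and 169 CPM after withdrawal. Atp5g3 had 1303, 864, 943, 842 and 767 CPM under brequinar and 1309, 910, 917, 1003 and 520 CPM after withdrawal. Atp5g2 had 27.5 CPM at 48 h of brequinar against 38.8 CPM at 0 h, and 25.8 CPM at 48 h of withdrawal against 42.4 CPM at 0 h. Their sum at 48 h was at 0.582 (0.567 to 0.598) of 0 h under brequinar and 0.364 (0.353 to 0.375) after withdrawal. Atp5b, the catalytic F1 subunit, had 1026, 1070, 958, 609 and 518 CPM under brequinar and 1026, 1086, 886, 824 and 468 CPM after withdrawal. Atp5e, the smallest F1 subunit, had 1489 CPM at 48 h of brequinar against 1666 CPM at 0 h and 1256 CPM at 48 h of withdrawal against 1652 CPM at 0 h. Cycs, Atp5g1, Atp5g2, Cox5b, Cox6a1, Cox7c, Ndufa12 and Ndufab1 share over 20% of the 31-base words of their last 500 bases with other genes. Their counts, and the sums and ratios made from them, are therefore uncertain. Without the 17 measured members of that kind, 9 members were lower at 24 h of brequinar, against 14 of 80 with them (13.8% of all genes). The 9 come from fewer members, so the smaller count is not by itself a smaller share.

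**Figure D5:**
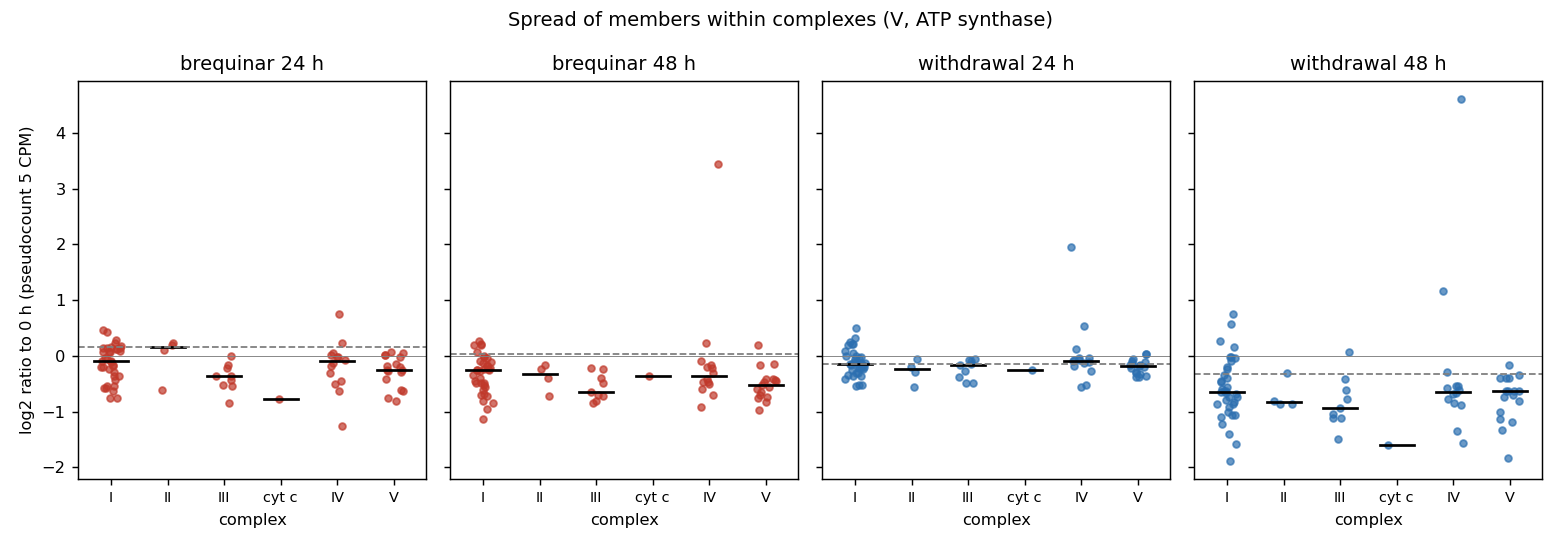
Log2 ratio to 0 h (pseudocount 5 CPM) of each of the 81 members that reached 20 CPM in any condition, by complex, V being the ATP synthase. Black bars are medians of a complex, and the dashed line is the median of all measured genes. At 48 h of withdrawal the medians of all 6 groups lie below the all-gene median of -0.33, and the point near 4.61 is Ndufa4l2.

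Set directly against each other at 48 h, brequinar had 17 of 80 members higher than withdrawal (37.6% of all genes) and 2 lower (8.57%), with a median log2 ratio of 0.22 (all genes 0.34). Under TMM scaling the same comparison gave 5 higher and 11 lower members and a median of -0.15. That scaling moves all genes alike, and the members' median minus that of all genes was -0.14 to -0.090 over the settings run. Higher by most under brequinar were Cycs, Cox6a2 at 2.25-fold (1.86 to 2.72), Atp5s at 2.15-fold (1.62 to 2.87), Ndufa12 at 2.12-fold (1.84 to 2.45) and Atp5g1 at 2.01-fold (1.87 to 2.17). Lower under brequinar were Ndufa4l2, 2.19-fold (1.93 to 2.47), and Cox7a2l, 1.95-fold (1.86 to 2.05). At 24 h, 1 member was higher and 3 lower (8.05% of all genes): Ndufv3, Cox6a2 and Cox7c.

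Related genes were taken from lists chosen by role, and their counts stand beside the shares of all genes at 48 h given above, 17.3% lower and 25.7% higher under brequinar and 40.7% lower and 21.5% higher after withdrawal. Of 13 protein genes of the mitochondrial DNA, 11 were measured, and at 48 h of brequinar 1 was higher and 6 lower, at a summed level of 18796 CPM against 34670 CPM at 0 h. After withdrawal 0 were higher and 4 lower, at 20067 CPM against 32972 CPM. At 24 h the sum was 18843 CPM under brequinar and 31676 CPM after withdrawal, so the mitochondrial genes were low earlier under brequinar. The member higher at 48 h of brequinar was mt-Co1, encoding the catalytic subunit of complex IV, with 837, 1182, 1642, 1974 and 1990 CPM over the series. mt-Cytb, the complex III subunit, had 15402, 12448, 8981, 4823 and 4996 CPM under brequinar and 14665, 15719, 16882, 13735 and 8454 CPM after withdrawal. mt-Nd1, of complex I, had 3344 CPM at 48 h of withdrawal against 7432 CPM at 0 h.

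Assembly factors had 10 of 36 lower and 0 higher at 48 h of brequinar, and 20 of 33 lower and 2 higher after withdrawal. Ndufaf4, a complex I assembly factor, had 24.6 CPM at 48 h of withdrawal against 191 CPM, a ratio of 0.129 (0.11 to 0.15), and Ndufaf2 had 30.5 CPM against 161 CPM. Under brequinar the lowest was Nubpl, which assembles complex I iron-sulfur clusters, with 6.30 CPM against 20.7 CPM. Regulators of mitochondrial genes had 3 of 13 lower under brequinar, near the share of all genes, and 9 of 13 after withdrawal. Ssbp1, which binds single-stranded mitochondrial DNA, had 179 CPM against 423 CPM under brequinar. Pprc1, a coactivator, had 5.39 CPM against 25.4 CPM after withdrawal. Of the citric acid cycle list 5 of 16 were lower under brequinar and 13 of 16 after withdrawal. Idh3a, of isocitrate dehydrogenase, had 68.0 CPM at 48 h of withdrawal against 294 CPM, and Suclg2, of succinyl-CoA synthetase, 35.5 CPM at 48 h of brequinar against 95.1 CPM.

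Ubiquinone synthesis and electron donor genes had 7 of 16 lower and 1 higher under brequinar and 10 of 15 lower after withdrawal. Dhodh, the target of brequinar, had 25.5, 17.0, 24.0, 11.7 and 11.8 CPM under brequinar and 24.2, 15.5, 14.1, 14.6 and 6.56 CPM after withdrawal. Its RNA lay below 0 h at every later time in both series, except at 12 h of brequinar, where it was close to 0 h. All its values but those at 0 h and at 12 h of brequinar were under 20 CPM. Carriers of ADP, phosphate and protons had 5 of 14 lower and 2 higher under brequinar and 10 of 14 lower after withdrawal. Chchd10, taken from that list though not itself a carrier of this kind, had 173 CPM at 48 h of brequinar against 894 CPM. At 48 h of withdrawal it had 157 CPM against 881 CPM. Ucp2, an uncoupling protein homolog, was higher under brequinar, with 530 CPM against 315 CPM, 1.68-fold (1.61 to 1.76). It was chosen after its values were seen.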

How the data were processed

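The authors deposited UMI counts of the spliced transcripts per cell barcode and gene as 1 matrix for both runs, made with kallisto 0.46, bustools 0.39.4 and Cell Ranger per the submitters' processing notes, which give no role or order for them. Library chemistry was 10x v3, per the labels' protocols. Neither genome build nor annotation is given in the sources used here. The matrix holds 54838 gene IDs, of which 54723 were given a symbol, and IDs sharing a symbol (2 for Atp5o) were summed. Of 15582 barcodes in the authors' deposited annotation, 2777 doublets and the negatives were left out, with no doublet caller run in addition, and 26 barcodes were listed more than once. The 12540 cells used hold 134068354 of 209704818 spliced UMIs (63.9%). Barcodes carry no mark of the run.

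Counts were summed per condition and divided by the total per 1000000. Ratios carry exact 95% Clopper-Pearson intervals of counts, and log2 ratios a pseudocount of 5 CPM. Genes named in the text were, for each complex, series and time of 24 or 48 h, the highest and lowest member, up to 12 members past 1.5-fold per comparison, and a fixed set of core genes and isoform pairs. For the related lists the rule takes the 2 members furthest in the direction of the median at 48 h. Ndufa6, Atp5e, Uqcr11, Uqcrfs1, mt-Co1 and Ucp2 lie outside these rules and were chosen after their values were seen. The members and lists were chosen with earlier results of these data known. Biotypes and overlaps were taken from GENCODE vM21. The ratio step was tested on simulated counts. Tools were Python 3.11.15, numpy 2.4.6, scipy 1.17.1, pandas 2.3.3, R 4.3.3 and edgeR 4.0.16, the last for TMM factors only. Alternatives were the scaling, the CPM and fold limits, the cells used and their weight, removal of free RNA and the other 0 h culture.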

Additional observations from a re-analysis of the deposited data

How the results depend on the processing

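Counting error was small, with 5236694 UMIs or more per culture, and 1 culture per condition leaves the variation between cultures unmeasured. Leaving out a replicate was not possible for the same reason. No paired analysis was possible because the runs are not marked in the matrix and each condition is 1 culture. Over the alternatives, 208 counts of called members stayed within 1.5 times and 48 did not. Medians stayed within 0.04, the SD between the 0 h cultures, in 77 cases and did not in 15. Signs were checked only for named members at 48 h, and not under the CPM, fold or shared-word settings. Of those log2 ratios, 699 stayed within counting error and 175 did not, and 0 called ones changed sign. Under TMM scaling, brequinar had 1 higher member at 6 h, 3 lower at 12 h, 27 lower at 24 h and 45 lower at 48 h, withdrawal 7 lower at 6 h, 9 lower at 12 h and 1 higher at 24 h, and brequinar against withdrawal 0 higher and 16 lower at 24 h and 5 higher and 11 lower at 48 h. TMM scaling moves all genes of a comparison alike, and their share under it is not given beside these counts. The medians were then -0.31, -0.21, -0.42 and -0.61 for brequinar at 6, 12, 24 and 48 h, -0.28, -0.21, -0.12 and -0.48 for withdrawal, and 0.023, -0.27 and -0.15 for brequinar against withdrawal at 12, 24 and 48 h, the last against 0.22 in the report. With each cell weighing the same, the medians were -0.094 and -0.30 for brequinar at 24 and 48 h, and 0.051 and 0.26 for brequinar against withdrawal, and lower members were 3 at 6 h and 9 at 24 h of brequinar, with 1 higher and 1 lower at 24 h of withdrawal. At 2-fold, brequinar had 1 higher and 0 lower at 6 h, 1 lower at 24 h and 1 lower at 48 h, withdrawal 1 higher and 0 lower at 6 h, 1 higher and 1 lower at 12 h and 20 lower at 48 h, and brequinar against withdrawal 1 higher at 12 h, 0 and 0 at 24 h, and 5 higher and 1 lower at 48 h. A limit of 5 CPM gave 2 higher at 12, 24 and 48 h of brequinar, 1 at 24 h of withdrawal and 2 between the series at 24 h, and a limit of 50 CPM gave 1 higher at 6 h in each series. Cells under 10% mitochondrial UMIs gave 2 higher between the series at 24 h, as did cells of at least 2500 UMIs, which also gave 1 lower at 24 h of withdrawal. Removing 5% free RNA gave 2 higher at 12 h of brequinar, 3 lower at 24 h of withdrawal and 2 higher between the series at 24 h. The other 0 h culture gave 1 higher at 6 h of brequinar and 1 lower at 24 h of withdrawal. Without members that share words with other genes, chosen after seeing the data, there were 9 lower at 24 h of brequinar, 1 lower at 6 h and 1 at 12 h of withdrawal, and 1 higher between the series at 12 h. The counts of the other settings also stand without the share of all genes under the same setting. They therefore do not show whether members moved apart from other genes. Beyond each setting's own construction, the cause was not tested.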

Other observations

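Within the 48 h cultures, cells were split into 2 groups of equal size by their share of UMIs in the neutrophil maturation list, as a description within 1 culture. After withdrawal, 0 members were higher (3.21% of all measured genes) and 7 of 79 lower (17.7%) in the cells with the larger share, with a median log2 ratio of -0.31 (all genes -0.23). Ndufa4l2 had 86.3 CPM in those cells and 207 CPM in the other, a ratio of 0.418 (0.363 to 0.479), while Ndufv3 had 428 and 418 CPM. Under brequinar, 0 members were higher (4.52%) and 1 of 81 lower (4.5%), with a median of 0.02 (all genes -0.0081). That 1 was Cox6a2, with 29.1 CPM in the cells with the larger share and 84.7 CPM in the other.

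Ndufa4l2 UMIs were unevenly spread over cells. The 11 cells highest in it at 48 h of brequinar held 44.9% of its UMIs, and the 20 highest at 48 h of withdrawal held 36.4%. Cox7a1, under 20 CPM throughout, had 3.01, 4.19, 7.96, 16.4 and 10.9 CPM at 0, 6, 12, 24 and 48 h of brequinar and 3.97, 4.72, 6.73, 4.39 and 9.47 CPM in the withdrawal series.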
